A study of Bos taurus with 14 samples.

Results

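The nuclear genes of the mitochondrial respiratory chain and of ATP synthase were examined in cattle cells that met interferon tau (IFNT), the type I interferon through which a ruminant conceptus signals pregnancy to the mother. Members were every gene symbol on the array that starts with NDUF, SDHA to SDHD, UQCR, COX4 to COX8, CYC or ATP5, with 1 probe per symbol (the one with the highest mean log2 signal). The rule found 72 of the 6323 symbols with a probe. It gave 7 core and 26 accessory subunits of complex I, 4 subunits of complex II, 5 of complex III, cytochrome c, 10 common subunits and 4 tissue or condition isoforms of complex IV, and 14 subunits of ATP synthase. The last member was ATP5S (current symbol DMAC2L), which the symbol pattern takes in and which is a factor associated with the ATP synthase. No gene encoded by mitochondrial DNA was measured by a matched probe. The symbols COX1 and COX2 on this array name prostaglandin synthases and were not used.

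The respiratory chain sits in the inner mitochondrial membrane. Complexes I and II pass electrons from NADH and succinate to ubiquinone, complex III passes them through cytochrome c to complex IV, and complex IV reduces oxygen. The proton gradient that complexes I, III and IV build drives ATP synthase. Neutrophils, the main granulocytes of blood, take most of their ATP from glycolysis and have few mitochondria, whereas stromal fibroblasts respire.

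Gene expression was measured on 14 one-colour Agilent arrays, each with Cy3-labelled RNA of 1 Bos taurus sample. Bovine endometrial stromal cells (BES, 6 samples, studied in vitro) and granulocytes (8 samples, labelled as in vivo and in vitro) spent 2 h in either IFNT or phosphate-buffered saline (PBS), and the comparison asks what IFNT changes in each. BES had 3 samples per treatment and granulocytes had 4. No sample carried a genetic change, and the labels give neither breed nor age, nor whether samples came from separate animals or cultures. The IFNT dose is labelled 1 mg/mL, a concentration so high for an interferon that its unit may be an error.

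All 72 members were well above background on all 14 arrays and none was saturated, so none was lost to the filter on dim probes. Levels are given as log2 signal minus the 75th percentile of the array, an intensity between 2564 and 3173 in BES and between 1009 and 1491 in granulocytes. Arrays of 1 group correlated at 0.991 to 0.996 across probes. Of the stromal markers with a probe, 9 of 9 were well above background on all BES arrays, and 9 of 9 neutrophil markers were so on all granulocyte arrays. However, 4 of the 9 stromal markers were also well above background on all granulocyte arrays. Under PBS, 2 stromal markers were higher in granulocytes than in BES and 7 lower. On all BES arrays under PBS, 5 of the 9 neutrophil markers were well above background. BES also carried 4 of 5 epithelial markers. Granulocyte samples carried 4 of 4 monocyte markers on all arrays, with a summed level (in units of the array's 75th percentile) of 28.2 to 30.8 under PBS and 26.5 to 27.5 under IFNT. That sum was carried by CD68, which fell with IFNT (log2 -0.36), whereas CD14 (1.03), C1QB (0.47) and C1QC (0.41) rose. Of the T and NK cell markers, 6 of 7 under PBS and 7 of 7 under IFNT were well above background on all arrays, summing to 3.36 to 3.57 and 3.23 to 3.58. For B cells 3 of 3 were, summing to 2.33 to 2.45 and 2.52 to 2.62. The 1 eosinophil marker with a probe, ALOX15, was at 12.4 to 13.3 and 10.2 to 11.7. The 5 platelet and erythroid markers summed to 6.15 to 6.90 and 5.93 to 6.19. The 9 neutrophil markers of the granulocyte samples summed to 805 to 1014 and 825 to 906. In BES under PBS the neutrophil markers summed to 0.87 to 0.96, the stromal markers to 156.1 to 159.3 and the epithelial markers to 148.5 to 170.8. The epithelial sum was carried by KRT8, with a mean log2 level of 7.19. CDH1 was at 3.50, MUC1 at -3.70 and CLDN4 at -5.30, and EPCAM was well above background on no BES array. The part of other cells in the results was not tested, and in such bulk samples fewer cells of a type and less RNA per cell cannot be told apart. Each cell type had a slide of its own.

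Each probe is a stretch of 60 bases, and the members that moved most with IFNT in granulocytes are shown by their probes. The files pair the probes with no genome position. Printed 5′ to 3′ is a stretch of 30 bases of each probe and the whole NDUFB1 probe. Capitals mark the longest run that the probe shares, on the same strand, with any other probe sequence of the array, which was 12 to 14 bases. COX7A2 is printed beside its isoform COX7A1, and the whole probes of both share a run of no more than 7 bases.
COX7A1: acaggcatcAATAAATGTGCTGgtttcctg
COX7A2: tgagttCTTTGGGGATCAAtatttattgac
UQCRC2: ctTTTCTTCCAGTGagaggaaatataaagc
NDUFB1: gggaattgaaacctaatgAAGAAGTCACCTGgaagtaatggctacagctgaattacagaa
NDUFV3: ctgcactgcagAGAAATTATAATAAattat

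After 2 h of IFNT, granulocytes carried more mRNA of 4 members and less of 20, while 48 did not pass the test. COX7A1, UQCRC2 and NDUFB1 rose by more than 2-fold, and the falls were small with the exception of NDUFV3. Those 3 are 4.17% of the members, and 4.84% of all probes tested passed with a change of at least 2-fold. The 4 rises are 5.56% of the members, against 17.2% of the 10379 probes tested in granulocytes. The 20 falls are 27.8% of the members, against 27.4% of those probes. The share of members that rose was thus below the background, and the share that fell was near it. The median change over the 72 members was a log2 of -0.08, and over all probes tested it was -0.05. Changes were tested with limma, with Benjamini-Hochberg adjustment over all probes tested and a threshold of 0.05. In granulocytes array row 1 held PBS samples alone and row 2 IFNT samples alone, so row and treatment cannot be told apart there.

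**Figure D1:**
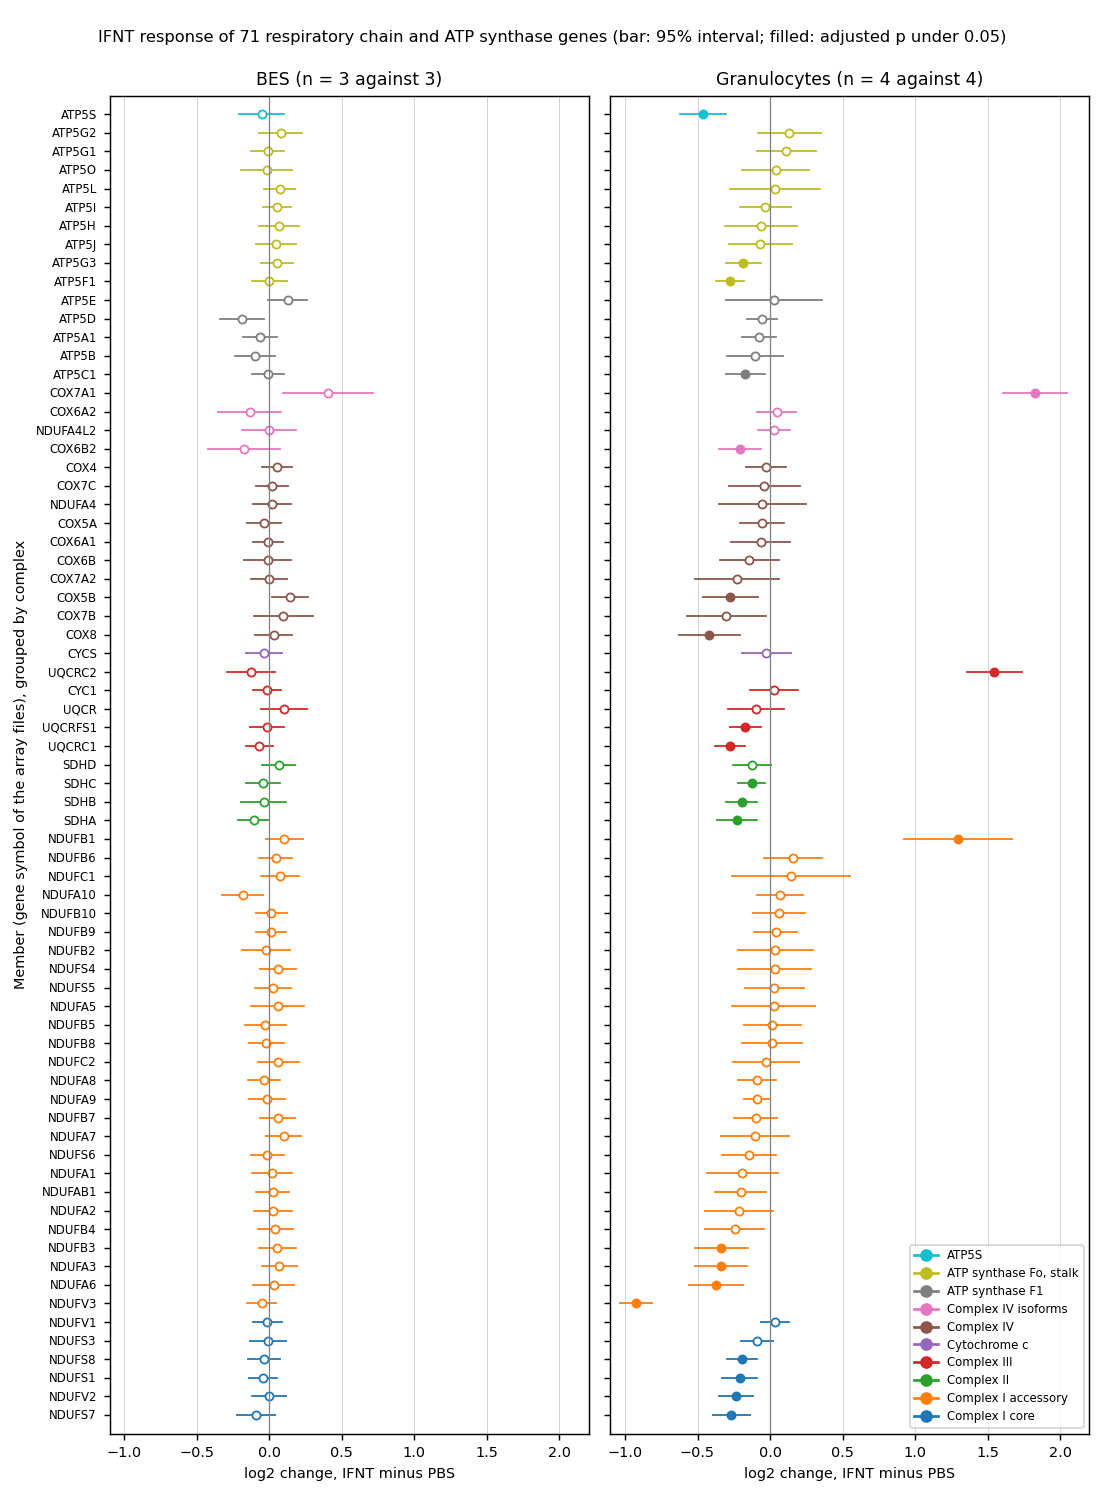
Log2 change with IFNT of 71 members in BES (left, 3 against 3 samples) and granulocytes (right, 4 against 4), grouped and coloured by complex; points are limma estimates, bars their 95% intervals, and filled points passed an adjusted p of 0.05. No point is filled for BES, and in granulocytes COX7A1, UQCRC2 and NDUFB1 stand apart at log2 1.82, 1.55 and 1.30 and NDUFV3 at -0.92.

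Complex I is the entry point for electrons from NADH. Of its 7 core subunits 4 fell in granulocytes, and of its 26 accessory subunits 1 rose and 4 fell. These and the later counts by complex stand beside 17.2% higher and 27.4% lower of all probes tested in granulocytes. The core subunits that fell were NDUFS7 (log2 -0.27 ± 0.06, SE, n = 4 against 4), NDUFV2 (-0.24 ± 0.05), NDUFS1 (-0.21 ± 0.05) and NDUFS8 (-0.19 ± 0.05). Their limma adjusted p ranged from 0.00413 to 0.0117. NDUFV1, which binds NADH, did not pass, with a log2 change of 0.03.

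NDUFB1, an accessory subunit of the membrane arm, had levels of 0.78, 0.59, 1.05 and 0.19 in granulocytes under PBS. With IFNT they were 1.94, 1.84, 2.09 and 1.92. The groups did not overlap, and the PBS samples were much more spread (SD 0.36) than the IFNT samples (SD 0.10). The rise was 2.46-fold (log2 1.30 ± 0.16, adjusted p = 2.6e-04). No other NDUFB subunit passed as higher, and the next highest, NDUFB6, had a log2 change of 0.16 (adjusted p = 0.173).

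NDUFV3, an accessory subunit of the NADH-binding module, showed the largest fall of all members. Its granulocyte levels were 5.23, 5.16, 5.10 and 5.22 under PBS and 4.23, 4.25, 4.23 and 4.32 under IFNT. Every IFNT sample lay far below every PBS sample, with a narrow spread on both sides. The fall was 1.89-fold (log2 -0.92 ± 0.05, adjusted p = 1.1e-06). It was the only member to fall by over 1.5-fold, since the other 19 falls ran from a log2 of -0.47 to -0.13.

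NDUFA6, NDUFA3 and NDUFB3 were the other accessory subunits that fell. NDUFA6, a small subunit of the LYR-motif family, went from levels of 2.16, 2.11, 2.35 and 1.96 under PBS to 1.72, 1.76, 1.86 and 1.76 under IFNT (log2 -0.37 ± 0.08, adjusted p = 0.00547). NDUFA3 went from 1.58, 1.41, 1.59 and 1.30 to 1.15, 1.08, 1.24 and 1.07 (-0.34 ± 0.08, adjusted p = 0.00733). In both, PBS sample 4 was the lowest of its group and still lay above all IFNT samples. NDUFB3 went from -0.17, 0.04, 0.11 and -0.23 to -0.39, -0.44, -0.33 and -0.44 (-0.34 ± 0.08, adjusted p = 0.00929), again without overlap.

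Complex II, succinate dehydrogenase, also belongs to the tricarboxylic acid cycle. Of its 4 subunits, 3 fell in granulocytes and none rose: SDHA, the flavoprotein (-0.23 ± 0.06, adjusted p = 0.0147), SDHB, the iron-sulphur protein (-0.19 ± 0.05, adjusted p = 0.00895), and the membrane anchor SDHC (-0.13 ± 0.04, adjusted p = 0.0353). The other anchor, SDHD, had a change of -0.12 (adjusted p = 0.111). All 4 estimates of complex II were thus small and below 0. Over all probes tested in granulocytes, 27.4% fell and 58.0% had an estimate below 0.

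Complex III held both a large rise and falls. UQCRC2, its core protein 2, had levels of 0.74, 0.94, 0.88 and 1.02 in granulocytes under PBS and 2.57, 2.36, 2.31 and 2.53 under IFNT. The IFNT samples were all more than 1 log2 unit above the PBS samples. The rise was 2.92-fold (log2 1.55 ± 0.08, adjusted p = 1.3e-06). UQCRC1, the other core protein, fell by 0.27 ± 0.05 on the log2 scale (adjusted p = 0.00128), and so did the Rieske iron-sulphur protein UQCRFS1, by 0.17 ± 0.05 (adjusted p = 0.0153). The haem protein CYC1 (0.03), the small subunit UQCR (-0.10, current symbol UQCR11) and cytochrome c itself, CYCS (-0.03), did not pass.

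A probe outside the rule, which the file describes as similar to the ubiquinol-cytochrome c reductase binding protein (a complex III subunit), also rose in granulocytes. Its mean level was 1.29 ± 0.26 under PBS and 2.78 ± 0.08 under IFNT (SD, n = 4 each), a log2 change of 1.49 ± 0.12 (adjusted p = 1.7e-05). In BES its change was -0.02. Its sequence shares a run of no more than 5 bases with the UQCRC2 probe. It was picked out after its values were seen. The probe of another complex III subunit outside the rule, UQCR10, had a change of -0.22 in granulocytes and did not pass (adjusted p = 0.0743). A further probe outside the rule, described as similar to the 11 kDa protein of that complex, did not pass either (0.075, adjusted p = 0.634).

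Complex IV, cytochrome c oxidase, showed the largest rise in an isoform that is best known from heart and skeletal muscle. COX7A1 had levels of 1.73, 1.65, 1.94 and 1.50 in granulocytes under PBS and 3.47, 3.45, 3.69 and 3.49 under IFNT. The groups were separated by more than 1 log2 unit, and the rise was 3.54-fold (log2 1.82 ± 0.10, adjusted p = 1.3e-06). COX7A2, the isoform of most tissues, had levels of 2.42, 2.37, 2.72 and 2.05 under PBS and 2.10, 2.12, 2.29 and 2.13 under IFNT. Its groups overlapped, and its change of -0.23 ± 0.13 did not pass (adjusted p = 0.181).

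None of the 10 common subunits of complex IV rose, and 2 fell. The array annotation describes COX8 as heart type, but RefSeq names it COX8A, and it was counted here with the common subunits. COX8 went from levels of 3.99, 3.87, 4.07 and 3.64 to 3.46, 3.44, 3.57 and 3.42 (-0.42 ± 0.09, adjusted p = 0.00594), without overlap. COX5B, a zinc-binding subunit, went from 2.69, 2.59, 2.80 and 2.46 to 2.34, 2.43, 2.45 and 2.23 (-0.27 ± 0.08, adjusted p = 0.0259). Its groups came close together, and its call was lost under 5 of the alternatives, with adjusted p up to 0.0691. Those were a test of all probes with no filter, and the fits without PBS sample 1, PBS sample 3, IFNT sample 1 or IFNT sample 4. Of the isoforms, COX6B2, known from testis, fell by 0.21 on the log2 scale, whereas COX6A2 and NDUFA4L2 had changes of 0.05 and 0.03 and did not pass. COX4, a nuclear-encoded subunit outside the catalytic core, had a change of -0.03 and did not pass.

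ATP synthase showed no rise. In the catalytic F1 part, the central-stalk subunit ATP5C1 fell (-0.17 ± 0.06, adjusted p = 0.0427), the called member whose groups overlapped. The F1 subunits ATP5A1 (-0.08) and ATP5B (-0.10) did not pass. In the membrane part and peripheral stalk, ATP5G3, which encodes the ring subunit c, fell by 0.18 ± 0.05 on the log2 scale (adjusted p = 0.0192). The other genes for that subunit, ATP5G1 and ATP5G2, had changes of 0.11 and 0.13 and did not pass. ATP5F1, the stalk subunit b, went from levels of 4.06, 4.04, 4.10 and 4.01 to 3.72, 3.80, 3.81 and 3.77 (-0.28 ± 0.04, adjusted p = 9.4e-04). A second spot set with the same 60 bases gave -0.26 ± 0.04. ATP5S went from -1.45, -1.61, -1.41 and -1.66 to -2.07, -2.03, -1.89 and -2.00 (-0.47 ± 0.07, adjusted p = 7.3e-04), and neither it nor ATP5F1 overlapped between groups.

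**Figure D2:**
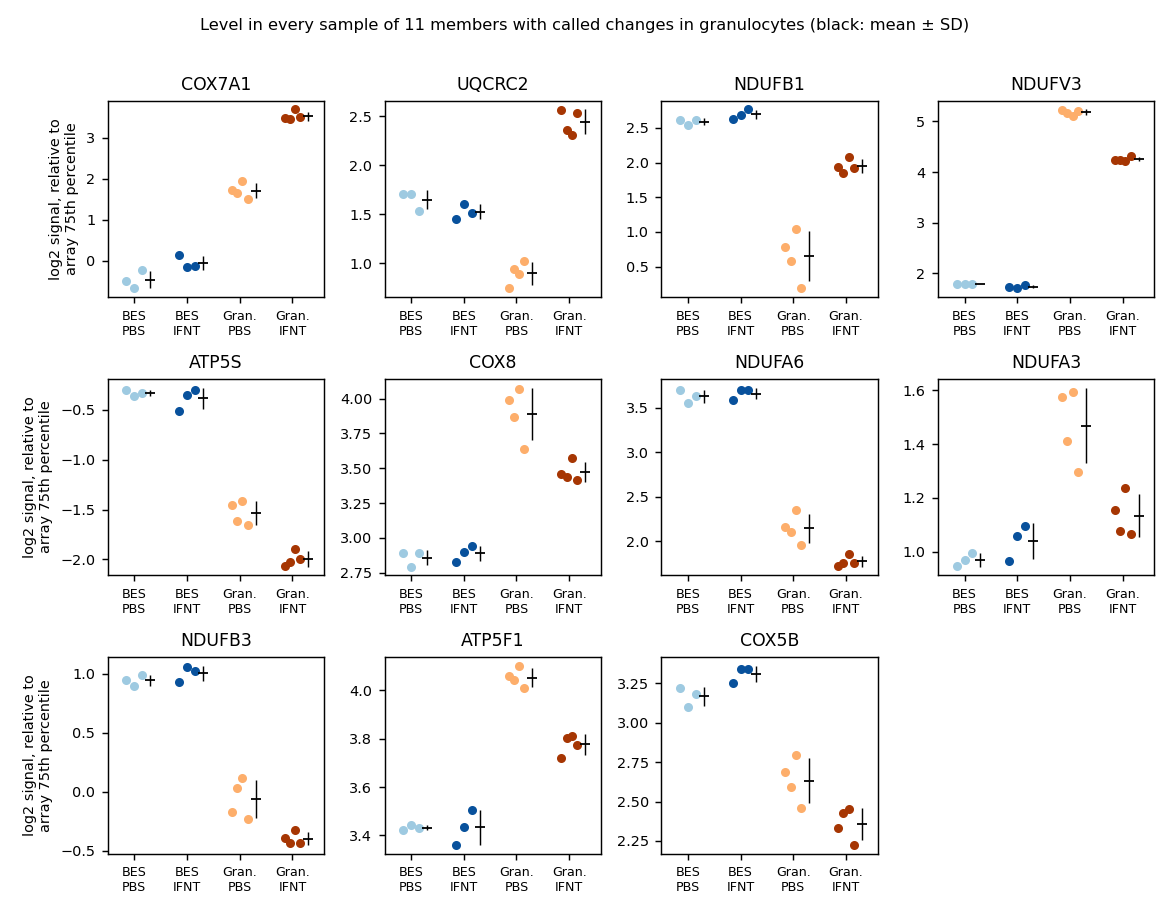
Log2 signal relative to the array's 75th percentile in each of the 14 samples for 11 members with called changes in granulocytes; each dot is a sample, and the black bar is mean ± SD of its group (n = 3 for BES, 4 for granulocytes). COX7A1, UQCRC2 and NDUFB1 were higher and the others lower in all 4 IFNT granulocyte samples than in all PBS ones. This separation was part of the rule that chose them and is not a further result.

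The members also differed between granulocyte samples of the same treatment. Under PBS, the median of the members was 0.15 above their PBS mean in sample 3 and 0.13 below it in sample 4, whereas the median of all probes tested was 0.01 and -0.01 there. Between those samples, 60 of 72 members were higher in sample 3. The median SD of the members was 0.14 in the PBS group, against 0.11 over all probes tested, and 0.07 against 0.08 in the IFNT group. Without PBS sample 4, 26 members fell instead of 20, and 4 rose. Without both samples 3 and 4, 4 rose and 22 fell, and COX7A1, UQCRC2, NDUFB1 and NDUFV3 changed by 1.84, 1.60, 1.26 and -0.94.

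**Figure D3:**
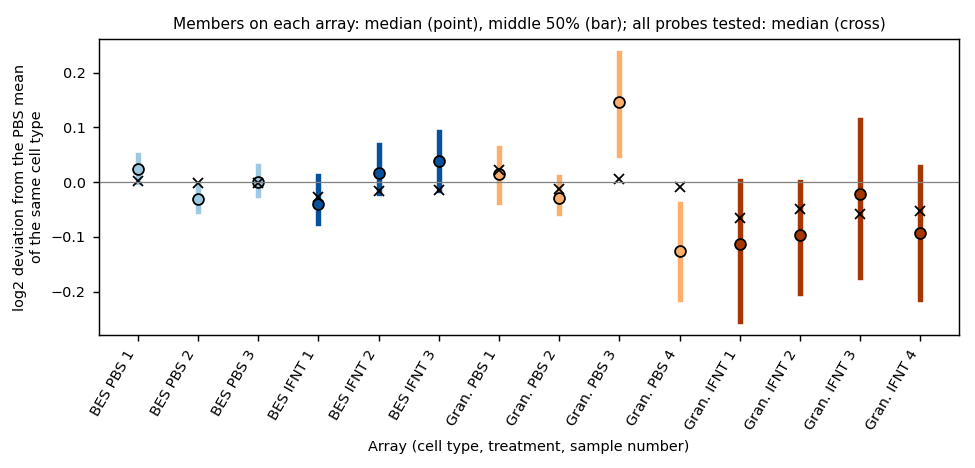
Deviation of the 72 members on each of the 14 arrays from the PBS mean of the same cell type, in log2 units; points are medians, bars span the middle 50% of members, and crosses are medians of all probes tested. Granulocyte PBS sample 3 has the highest median of the members (0.15) and PBS sample 4 the lowest (-0.13), while the crosses of both lie near 0.

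In BES, no member passed the test after 2 h of IFNT. Of the 11309 probes tested in BES, 3.66% passed (limma, Benjamini-Hochberg), and 5.56% of the members (4 of 72) had an unadjusted p under 0.05, against 25.4% of all probes. The median change of the members was 0.00 and that of all probes was -0.02. All members but COX7A1 had estimates within 0.2 log2 units of 0, and the 95% intervals of all 72 together ran from -0.42 to 0.71. The median SE of a member's change was 0.05.

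COX7A1 had the largest estimate in BES as well. Its levels were -0.50, -0.66 and -0.24 under PBS and 0.13, -0.16 and -0.14 under IFNT. The groups did not overlap, as held for 18.1% of the members and 33.5% of all probes tested. The change was 0.40 ± 0.13 (SE, n = 3 against 3; limma adjusted p = 0.130, 95% interval 0.09 to 0.71). UQCRC2 had levels of 1.70, 1.71 and 1.54 under PBS and 1.45, 1.61 and 1.52 under IFNT, and its change of -0.12 did not pass (adjusted p = 0.304). NDUFB1 (0.10) and NDUFV3 (-0.05) did not pass either. The remaining members with an unadjusted p under 0.05 were NDUFA10 (-0.18), ATP5D (-0.19) and COX5B (0.14), with adjusted p of 0.133 to 0.164.

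The difference between the responses was tested directly, as the granulocyte change minus the BES change over all 14 samples. It passed for 15 members, 20.8% of them, against 26.5% of the 12046 probes in this test. The response was higher in granulocytes for 4 (5.56%, against 11.7% of the probes), among them UQCRC2 (log2 1.67 ± 0.12, limma adjusted p = 6.8e-07), COX7A1 (1.42 ± 0.17, adjusted p = 6.6e-05) and NDUFB1 (1.19 ± 0.21, adjusted p = 0.00126). It was lower for 11 (15.3%, against 14.8%), with NDUFV3 farthest (-0.87 ± 0.06, adjusted p = 6.2e-07). COX8 (-0.45 ± 0.12), COX5B (-0.42 ± 0.11), ATP5S (-0.41 ± 0.10) and NDUFA3 (-0.41 ± 0.10) followed, with adjusted p of 0.00955 to 0.0174. The count of lower responses was 18 without granulocyte PBS sample 4. The 3 complex II subunits that fell in granulocytes were not among the 15, so a difference between the cell types was not shown for them.

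Without IFNT, the levels of most members were lower in granulocytes. Under PBS, 60 of the 72 members were lower in granulocytes than in BES and 9 were higher, at a limma adjusted p under 0.05. That is 83.3% lower, against 45% of the 12046 probes tested, and 12.5% higher, against 46.7%. The median difference of the members was a log2 of -1.20, and that of all probes was 0.03. Quantile normalisation moved the medians to -1.70 and -0.23, scaling by the array median to -1.35 and -0.12, and normexp background correction to -1.24 and 0.50, so the members stayed below the probes as a whole under each. Cell type and slide cannot be told apart in these values.

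Among the lowest in granulocytes were subunits of complex I. NDUFS4, an accessory subunit of the NADH-binding arm, had levels of 2.72, 2.67 and 2.67 in BES and -0.80, -0.85, -0.53 and -0.99 in granulocytes, which is 11.1-fold lower (log2 -3.48 ± 0.10, adjusted p = 1.6e-12). NDUFV1 was at 3.51, 3.48 and 3.50 in BES and 0.68, 0.60, 0.66 and 0.72 in granulocytes (-2.83 ± 0.04). In both, all granulocyte samples lay over 2 log2 units below all BES samples.

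NDUFA5, NDUFC1 and NDUFB6 were also among the lowest. NDUFA5 was at 2.36, 2.21 and 2.27 in BES and -0.72, -0.81, -0.37 and -1.02 in granulocytes (-3.01 ± 0.12). NDUFC1 was at 1.62, 1.60 and 1.62 in BES and -1.02, -1.28, -0.80 and -1.75 in granulocytes (-2.82 ± 0.17), where sample 4 was lowest. NDUFB6 was at 2.78, 2.72 and 2.80 in BES and 0.10, 0.03, 0.28 and -0.12 in granulocytes (-2.69 ± 0.08). The largest deficits of the other complexes were smaller, with -2.60 in ATP5J, a stalk subunit of ATP synthase, -2.20 in UQCR of complex III, -2.05 in NDUFA4 of complex IV and -1.72 in SDHA of complex II.

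NDUFV3 went the other way. Its levels under PBS were 1.79 in all 3 BES samples and 5.23, 5.16, 5.10 and 5.22 in granulocytes, 10.5-fold higher (log2 3.39 ± 0.04, adjusted p = 5.5e-16). COX7A1 was at -0.50, -0.66 and -0.24 in BES and 1.73, 1.65, 1.94 and 1.50 in granulocytes, 4.49-fold higher (2.17 ± 0.12). Thus the member with the largest fall and the member with the largest rise under IFNT were both higher in granulocytes than in BES, although these comparisons share the granulocyte PBS samples. The members that moved next most went both ways. Of the rises, UQCRC2 (-0.75) and NDUFB1 (-1.94) were lower in granulocytes under PBS. Of the falls, ATP5S (-1.20) was lower and COX8 (1.03) higher.

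Isoforms of complex IV made up 3 of the 9 members that were higher in granulocytes, while the other isoform, COX6B2, was lower there (-0.51 ± 0.09, adjusted p = 8.9e-05). COX6A2, a muscle isoform, was at -5.46, -5.55 and -5.64 in BES and -4.30, -4.34, -4.20 and -4.12 in granulocytes (1.31 ± 0.08). NDUFA4L2, a hypoxia-inducible relative of NDUFA4, was at -3.89, -3.82 and -4.09 in BES and at -3.04, -3.13, -3.02 and -3.00 in granulocytes (0.89 ± 0.06). No sample of one cell type overlapped the other in either, as held for 94.4% of the members and 90.4% of all probes tested. Both were dim members, though well above background on all arrays. HBB, whose probe was well above background on no array, sat at -9.77 in BES and -8.14 in granulocytes under PBS. This scale thus put even a signal at the floor higher in granulocytes, and its part in these 2 differences was not tested. Under alternatives other than leaving out single samples, the COX6A2 difference ran from 0.915 to 1.436. COX8 was at 2.89, 2.80 and 2.89 in BES and 3.99, 3.87, 4.07 and 3.64 in granulocytes (1.03 ± 0.09). It was counted with the common subunits and not the isoforms, although the array annotation describes it as heart type. NDUFA1, a small complex I subunit, was at 3.08, 2.94 and 2.99 in BES and 3.80, 3.77, 4.08 and 3.55 in granulocytes (0.80 ± 0.10). ATP5F1 (0.62), NDUFA3 (0.50) and ATP5B (0.19) were the others, and the ATP5B samples overlapped.

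By complex, all 4 subunits of complex II and all 5 of complex III were lower in granulocytes under PBS, with median differences of -1.13 and -0.77. Of complex I, 29 of 33 were lower and 3 higher, with a median of -1.49. Of the 14 ATP synthase subunits, 12 were lower and 2 higher, with a median of -1.21. Of the 10 common complex IV subunits, 7 were lower and 1 higher, with a median of -0.79. Of all 12046 probes tested, 45% were lower and 46.7% higher, with a median of 0.03. COX4 (-0.06, 95% interval -0.18 to 0.06), COX7B (-0.12, -0.38 to 0.14) and the complex I core subunit NDUFS8 (0.00, -0.09 to 0.09) did not pass.

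**Figure D4:**
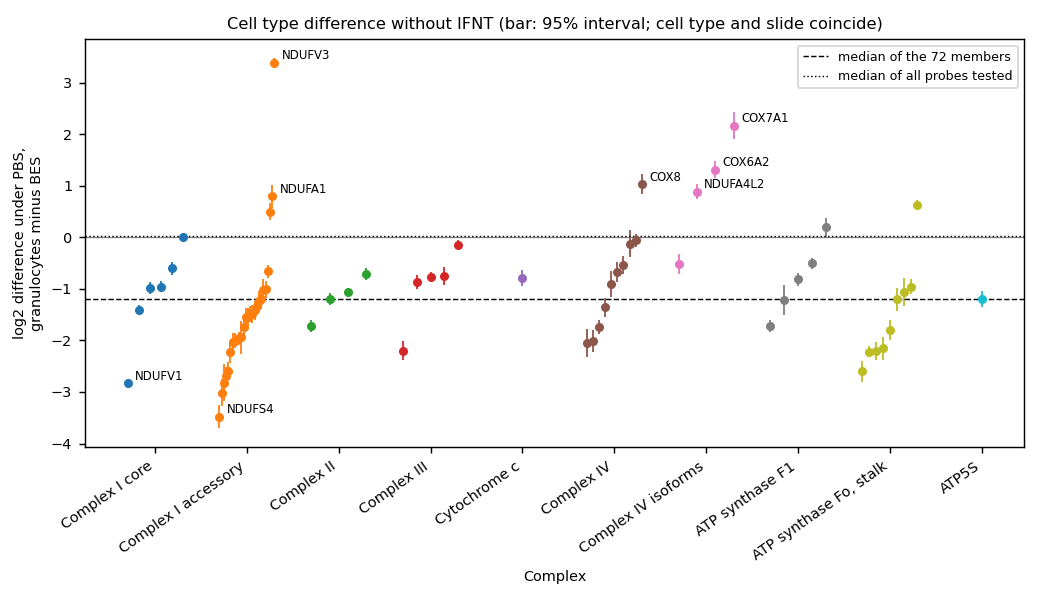
Log2 difference under PBS, granulocytes (n = 4) minus BES (n = 3), of 71 members by complex; points are limma estimates and bars 95% intervals, with dashed and dotted lines at the medians of the 72 members (-1.20) and of all 12046 probes tested (0.03). Most points lie below 0, while NDUFV3 (3.39), COX7A1 (2.17), COX6A2 (1.31) and COX8 (1.03) lie above it.

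Genes that serve the same organelle were counted from lists outside the rule, and their counts stand beside the shares of all probes tested in granulocytes, 17.2% higher and 27.4% lower. Of 13 tested genes of the tricarboxylic acid cycle and pyruvate dehydrogenase, 3 fell in granulocytes, among them FH, fumarase (log2 change -0.54 ± 0.05, adjusted p = 4.1e-05). Of 11 carriers and channels, 1 rose and 6 fell, among them VDAC3 (-0.57), a pore of the outer membrane, SLC25A4 (-0.56), an ADP/ATP carrier, and the phosphate carrier SLC25A3 (-0.40). Their median change was -0.30, against -0.05 over all probes tested. Of 10 assembly factors 1 rose and 2 fell, and of 10 protein import genes 1 rose and 3 fell. The assembly factor that rose, HIGD2A, was well above background on 1 of 4 PBS arrays and 4 of 4 IFNT arrays, so it entered the test through the group in which it was higher and no size is given.

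Of 9 tested genes of mitochondrial DNA maintenance and expression, 3 rose and 1 fell in granulocytes. TFAM, which packages mitochondrial DNA and starts its transcription, rose from a mean level of -1.39 ± 0.11 to 0.25 ± 0.09 (log2 change 1.64 ± 0.07, adjusted p = 3.1e-07). In BES TFAM rose as well, by 0.44 ± 0.05 (adjusted p = 0.00701), and the responses differed by 1.20 (limma). POLG2, a subunit of the mitochondrial DNA polymerase, rose by 0.29, and TFB2M, a transcription factor of the organelle, fell by 0.34. TFAM was the only gene of these 5 lists that rose in BES. SLC25A1, the citrate carrier, fell there (-0.49 ± 0.09, adjusted p = 0.0396).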

How the data were processed

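The arrays were read with Agilent Feature Extraction 9.5, per the submitters' processing notes. The deposited scanner files hold a processed signal for each spot, an intensity that the authors' software had corrected for background, per the file headers, and yes-or-no marks for spots well above background, saturated or outlying. The authors' deposited value table holds log2 values, each column being the log2 processed signal minus 1 constant per array (medians -3.42 to -3.23). Its direction and scale are thus known, and it served as an alternative.

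Here the 75th percentile of the 15208 non-control probes was subtracted from the log2 signal of each array, and outlier spots were left out. A probe was tested if well above background on at least 3 of 6 BES or 4 of 8 granulocyte arrays (in either cell type for contrasts over both). Tests used lmFit and eBayes of limma 3.58.1 under R 4.3.3, two-sided, with p-values adjusted by Benjamini-Hochberg over all probes tested. The fits were tested on simulated data with known changes. The labels name no separate animals or cultures for the replicates, and p-values then measure only the spread between these samples, and the number of arrays limits the precision.

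The members and lists were chosen with earlier results of these data known. Of the members, 55 were matched to current symbols by accession and 17 by gene number, symbol or synonym in RefSeq's table for ARS-UCD2.0. Among those 17, CYCS and NDUFA4L2 were matched by gene number and had their name from the probe's description. Values in every sample were given for called members with groups that did not overlap (up to 8 rises and 8 falls per IFNT comparison), the 6 largest cell type differences each way and the 5 largest differences of responses each way. Members that went against their complex, and up to 4 genes per related list with the smallest p, could be named too. Of the members, 1 is not reported here by name, nor is 1 related gene, though counts include them. The labels do not say whether equal replicate numbers pair the samples, and the main tests did not pair them. Alternatives covered background correction, scaling, filters, the variance prior, the authors' table, probe choice, array row, a replicate block and leaving out samples. Leaving out 2 granulocyte PBS samples together was added after seeing the data.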

Additional observations from a re-analysis of the deposited data

Results flagged for a closer look

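The IFNT response of 15 members differed between the cell types in a test of the difference itself (limma, granulocyte change minus BES change, adjusted over all 12046 probes). Of those reported here, the log2 differences were 1.67 for UQCRC2, 1.42 for COX7A1 and 1.19 for NDUFB1. On the lower side they were -0.87 for NDUFV3, -0.45 for COX8, -0.42 for COX5B, -0.41 for ATP5S, -0.41 for NDUFA3, -0.40 for NDUFA6 and -0.39 for NDUFB3. Smaller ones were -0.28 for ATP5F1, -0.24 for NDUFV2, -0.24 for ATP5G3 and -0.20 for UQCRC1. Among 38 groups of 4 samples checked (the members given in every sample), none held a sample far from the others by Dixon's criterion, although chance alone would mark about 1 in 20.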

How the results depend on the processing

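The counts of members called kept within 1.5 times their values under every alternative but 1. The count of members with a lower response in granulocytes was 11, and 18 without granulocyte PBS sample 4 (8 to 18 when each sample was left out in turn). The cause was not tested. Falls in granulocytes ranged from 16 to 26 when single samples were left out and from 16 to 23 under the other alternatives. In BES 0 members passed under all 18 alternatives, while the count of all probes called there, 414, moved between 149 (array row in the model) and 1011 with an intensity trend and robust prior. Under these alternatives the members given in every sample kept their direction, and among them COX5B alone lost a call. The other members were not followed one by one. Deviations of samples with the same replicate number correlated at -0.01 to 0.06 in BES and -0.12 to 0.20 in granulocytes. Different numbers were not compared, so whether the numbers pair the samples was not settled. With the replicate block, 4 members rose and 20 fell in granulocytes, 0 passed in BES, 4 and 11 responses differed, and 8 were higher and 59 lower under PBS.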
